A study of Mus musculus with 4 samples.

Results

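The 8 genes of the cell division cycle described here were followed across the 15 numbered cell clusters of a cardiac differentiation of mouse embryonic stem cells. They were Ccnd1, Ccnd2, Ccng1, Cdkn1a, Top2a, Cenpf, Mcm6 and 2810417H13Rik, 8 of the 1197 genes in the authors' deposited table of marker genes. They were chosen by name from that table, with earlier results of these data known. Together they have 48 of its 2212 entries, and 8 genes in 15 clusters make 120 possible pairs. Each entry sets 1 cluster against all other cells, so "inside" below means the cells of that cluster and "outside" means all the rest.

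The series holds 4 libraries of single cells, 1 per group: mesoderm of a Brm knockout line and of the wild-type line, then a cardiac stage of the Brm knockout line and of the wild-type line. The cells of all 4 groups carry a triple FLAG tag on BRG1, and the Brm knockout cells lack the BRM ATPase encoded by Smarca2 as well. The cardiac stage is labelled cardiac myocyte in the source name and as cardiac progenitors in the cell type field. The table gives clusters by number and no library, and its title carries the knockout's name alone, so genotypes and stages were not compared and no value here has a replicate or a test. Smarca2 had 0 entries, so the table does not check the genotype labels. The clusters were formed from these same expression values, which makes every fold below a description.

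The D cyclins Ccnd1 and Ccnd2 bind the kinases CDK4 and CDK6 in G1, and together they phosphorylate the retinoblastoma protein and release E2F factors that switch on genes of DNA replication. Cdkn1a encodes p21, which inhibits cyclin-dependent kinases and binds the replication clamp PCNA, and Ccng1 encodes cyclin G1. Both are well known targets of the p53 factor. Mcm6 is a subunit of the replicative helicase, and 2810417H13Rik, now named Pclaf, encodes a PCNA-associated factor of replicating cells. Top2a encodes the topoisomerase that untangles sister DNA, and Cenpf a protein of the mitotic kinetochore. In embryos, progenitor cells divide quickly. Heart muscle cells and neurons leave the cycle as they mature, which need not be within the embryo.

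Clusters are called like a cell type only where at least 3 genes of a marker list were listed higher and the leading genes did not go against it. Cluster 2 was cardiomyocyte-like, with 14 of 14 listed cardiomyocyte markers higher and led by Actc1, Myl7 and Myl4. Clusters 0 and 7 were nascent-mesoderm-like, with 4 and 5 of 8 such markers, and were led by Crabp1. Clusters 1 and 4 were neural-progenitor-like, with 5 and 6 of 9 markers, cluster 8 was pluripotent-like with 5 of 8, and cluster 12 was neuron-like with 6 of 7. Cluster 5 was like cartilage mesenchyme with 4 of 4 markers, cluster 10 fibroblast-like with 5 of 9, and cluster 14 like extraembryonic endoderm with 8 of 10. Clusters 14 and 13 are the smallest, at 0.291% and 0.497% of cells. Clusters 3 (Krt8, T, Trh), 6 (Pcp4l1, Tpbg, Wnt1), 9 (Igfbp7, Tagln, Vim), 11 (Col3a1, Col2a1, Col1a2) and 13 (Myl7, Tnnt2, Myl4) are given by number and leading genes. Cluster 3 had 7 of 7 epithelial markers beside its mesoderm markers, and cluster 9 had 3 of 9 markers of smooth muscle and fibroblasts (Tagln, Acta2, Col1a1). Cluster 13 had 13 of 14 cardiomyocyte markers higher, led by Myl7 at 3.85-fold, against 53.5-fold for Myl7 in cluster 2, and all 10 mitochondrially encoded genes of the table higher.

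Promoters are shown for the replication and mitosis genes, because all 4 were listed lower in clusters 2, 9 and 12, and for Cdkn1a, which was listed higher in clusters 2 and 9. The sequences are from RefSeq on the GRCm38.p6 build, 250 bases before to 50 after each start site on the gene's own strand, and 6 of the 8 members matched the table. Capitals mark CCAAT (or ATTGG on the other strand), TTTGAA (or TTCAAA), the E2F letters (TTCCCGC or else TTGGCGC or else TTGCCGC or else TTCGCGC) on either strand, and in Cdkn1a the p53 spacing CATGNNNNNNCATG, a pattern added after this sequence was seen.
Top2a, chr11:99024140-99024439, minus strand: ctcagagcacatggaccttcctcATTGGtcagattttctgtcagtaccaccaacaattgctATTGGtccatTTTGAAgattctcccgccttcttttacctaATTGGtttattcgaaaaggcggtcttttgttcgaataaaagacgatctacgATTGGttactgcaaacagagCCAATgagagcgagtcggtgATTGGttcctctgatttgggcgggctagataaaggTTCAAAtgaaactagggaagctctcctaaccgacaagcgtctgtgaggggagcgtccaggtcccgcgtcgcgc
Cenpf, chr1:189688037-189688336, minus strand: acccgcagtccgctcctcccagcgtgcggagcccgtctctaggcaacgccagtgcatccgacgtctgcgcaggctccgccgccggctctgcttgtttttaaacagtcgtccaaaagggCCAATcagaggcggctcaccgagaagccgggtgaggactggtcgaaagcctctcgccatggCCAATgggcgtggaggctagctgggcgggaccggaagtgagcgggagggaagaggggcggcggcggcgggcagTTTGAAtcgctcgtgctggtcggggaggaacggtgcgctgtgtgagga
Mcm6, chr1:128359656-128359955, minus strand: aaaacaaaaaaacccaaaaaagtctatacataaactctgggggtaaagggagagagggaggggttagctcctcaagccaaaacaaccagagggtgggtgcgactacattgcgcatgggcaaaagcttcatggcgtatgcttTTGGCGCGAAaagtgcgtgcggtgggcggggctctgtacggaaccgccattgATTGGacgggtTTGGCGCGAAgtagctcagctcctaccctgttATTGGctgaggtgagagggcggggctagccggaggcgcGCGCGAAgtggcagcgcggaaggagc
2810417H13Rik, chr9:65890073-65890372, plus strand: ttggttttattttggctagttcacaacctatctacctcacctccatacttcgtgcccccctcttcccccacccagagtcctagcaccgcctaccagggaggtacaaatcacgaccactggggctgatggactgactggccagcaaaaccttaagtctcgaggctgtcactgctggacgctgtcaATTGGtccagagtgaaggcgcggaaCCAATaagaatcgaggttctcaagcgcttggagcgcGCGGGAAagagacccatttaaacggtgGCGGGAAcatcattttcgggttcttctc
Cdkn1a, first start site, chr17:29090729-29091028, plus strand: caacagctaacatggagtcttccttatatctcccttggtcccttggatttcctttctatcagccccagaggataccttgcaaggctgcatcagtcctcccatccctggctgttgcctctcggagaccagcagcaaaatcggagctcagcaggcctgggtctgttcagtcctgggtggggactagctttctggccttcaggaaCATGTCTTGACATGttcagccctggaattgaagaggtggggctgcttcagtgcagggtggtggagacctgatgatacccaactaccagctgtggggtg
Top2a held 6 CCAAT letters and 2 TTTGAA letters, with the nearest TTCAAA starting 23 bases before the start site. Cenpf held 2 CCAAT and 1 TTTGAA, which began at base 3 counted from the start site. Mcm6 held 2 CCAAT and 5 E2F matches, of which 4 lie in 2 overlapping pairs, and 2810417H13Rik held 2 CCAAT and 2 E2F matches. Neither Mcm6 nor 2810417H13Rik held TTTGAA in this window, and neither Top2a nor Cenpf held the E2F letters. Over all 32851 windows of the same length, 37.4% held CCAAT, 11.7% held it at least 2 times, 17.9% held TTTGAA and 9.57% held an E2F match. Cdkn1a held none of these, and the p53 spacing was present 48 bases before its first start site, a pattern held by 0.712% of windows. The window of its second start site, chr17:29093519-29093818, held no match of any kind. Ccng1 held 4 CCAAT matches, and 1.06% of windows held 4 or more. It held none of the other letters and no p53 spacing. A match describes letters and is not a measured site of binding.

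**Figure D1:**
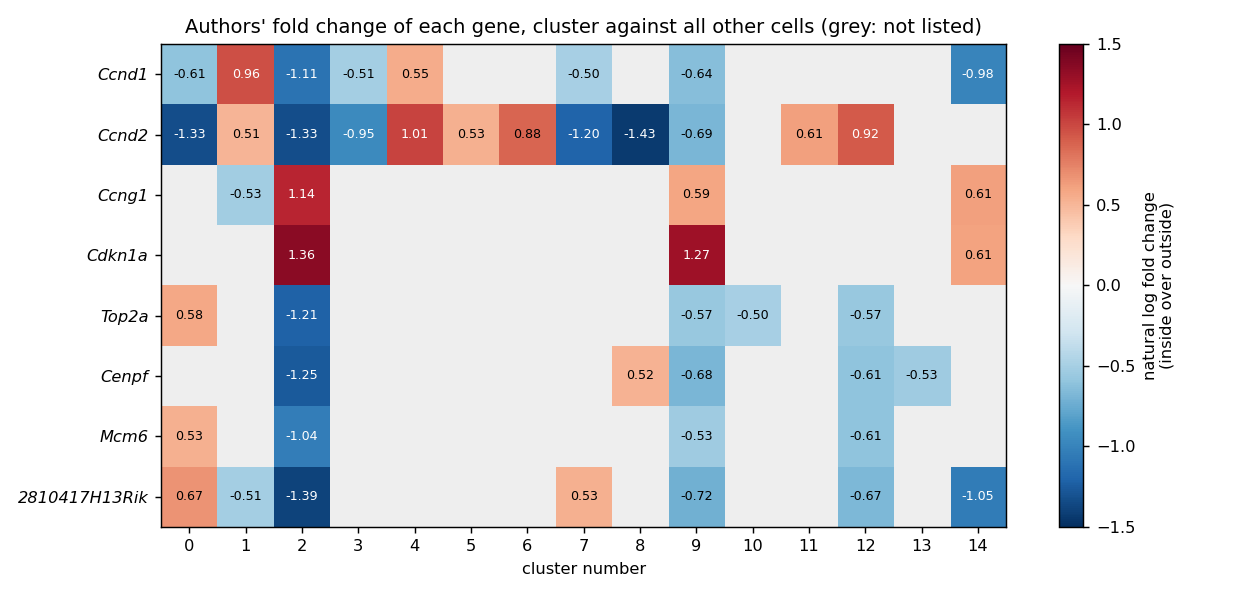
Natural log fold change of the 8 genes (rows) in each of the 15 clusters (columns), inside over outside, from the authors' deposited table, with red for higher, blue for lower and grey for not listed. Clusters 2 and 9 each list all 8 genes, with Ccng1 and Cdkn1a higher and the other 6 lower, while Ccnd2 is listed for 12 clusters.

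Ccnd2 had the widest pattern of the 8 genes. It was listed for 12 of the 15 clusters, higher in 6 and lower in 6, and only 0.501% of the genes in the table were listed for at least 12 clusters. It was the leading gene of the neural-progenitor-like cluster 4, where it was 2.75-fold higher and detected in 86.2% of cells inside, against 38.6% outside per the authors' deposited table. In cluster 6 it was 2.40-fold higher, with detection in 82.8% of cells inside and 39.3% outside per the authors' deposited table. In the neuron-like cluster 12 it was 2.52-fold higher, with 70.6% of cells inside against 42.2% outside per the authors' deposited table. These are the 3 clusters with the highest Ccnd2 levels, and cluster 6 among them has no cell type name here.

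The other clusters with more Ccnd2 had smaller folds. In the authors' deposited table it was 1.85-fold higher in cluster 11, 1.70-fold in the cartilage-mesenchyme-like cluster 5 and 1.67-fold in the neural-progenitor-like cluster 1. Detection of Ccnd2 inside was 65.3% in cluster 5, against 40.6% outside, and 73.1% in cluster 1, against 38% outside per the authors' deposited table. Cluster 11 had the highest share of cells with Ccnd2 of any listing cluster, 92.5% inside against 41.7% outside per the authors' deposited table. Detection was high in cluster 11 beyond Ccnd2: among its 8 genes listed higher by at most 0.75 in natural log units, the median detection inside minus outside was 43.5 percentage points, against 24.7 over such entries of all clusters. For cluster 5 the same median was 12.9 percentage points. The part of either in the Ccnd2 shares was not tested.

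Ccnd2 was lowest in the pluripotent-like cluster 8, at 4.18-fold lower and 10.3% of cells inside against 44.7% outside per the authors' deposited table. In the nascent-mesoderm-like clusters 0 and 7 it was 3.80-fold and 3.31-fold lower, and it was found in 13.4% and 16.2% of their cells per the authors' deposited table. In the cardiomyocyte-like cluster 2 it was 3.77-fold lower, with 12.6% inside against 47.0% outside per the authors' deposited table. Cluster 3 and cluster 9 followed at 2.60-fold and 1.99-fold lower, with 25.3% and 32.6% of their cells per the authors' deposited table. The low clusters thus held both early cell states and heart muscle.

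Folds against different outsides are not on a common scale. Each was turned into a level over the mean of all cells, with the cluster shares of cells solved from the detection values. Both means carry the constant that the authors added, which draws levels of weakly detected genes closer to 1. Levels and their ratios are therefore not plain ratios of expression. On this scale Ccnd2 stood at 2.46 in cluster 12, 2.39 in cluster 4, 2.17 in cluster 6, 1.82 in cluster 11, 1.60 in cluster 5 and 1.54 in cluster 1. The lower clusters stood at 0.511 in cluster 9, 0.411 in cluster 3, 0.318 in cluster 7, 0.297 in cluster 0, 0.293 in cluster 2 and 0.251 in cluster 8. Of the 11 steps between neighbours in this order, 1 reached the table's own threshold of 0.5 on the natural log scale, the 3.01-fold step between cluster 1 and cluster 9. From the top of the order to the bottom, cluster 12 had 9.81 times the Ccnd2 level of cluster 8. The 3 clusters that do not list Ccnd2 (10, 13 and 14) hold 3.72% of cells and together came to a level of 0.949, with detection in 45.7% of their cells. Over all cells Ccnd2 was detected in 42.7%, and the 12 estimates of this share had an SD of 0.0316 percentage points. The cluster sizes were fitted so that such estimates match, with Ccnd2 in the fit, so this SD is no independent check.

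Ccnd1 was listed for 8 clusters, and 3.26% of genes in the table reach that number. It was highest in the neural-progenitor-like cluster 1, at 2.62-fold higher and 71.3% of cells inside against 28.6% outside per the authors' deposited table. In cluster 4 it was 1.74-fold higher, with 60.0% of cells inside against 31.8% outside per the authors' deposited table. Clusters 1 and 4 each list both D cyclins higher, in opposite order: Ccnd1 had the larger fold in cluster 1 and Ccnd2 in cluster 4. Cluster 1 held 27.6% of all cells that detected Ccnd1 while making up 13.3% of cells.

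Ccnd1 was lower in 6 clusters. The cardiomyocyte-like cluster 2 had the largest fold, 3.02-fold lower with 4.9% of cells inside against 38.5% outside per the authors' deposited table. The extraembryonic-endoderm-like cluster 14 was next at 2.68-fold lower, with 8.3% of cells inside against 34.3% outside per the authors' deposited table. Cluster 9 was 1.89-fold, cluster 0 1.83-fold, cluster 3 1.66-fold and cluster 7 1.65-fold lower per the authors' deposited table. In those 4 clusters 16.2% to 23.6% of cells detected Ccnd1.

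In levels over the mean of all cells, Ccnd1 stood at 2.16 in cluster 1 and 1.64 in cluster 4, then at 0.627 in cluster 3, 0.623 in cluster 7, 0.587 in cluster 0, 0.536 in cluster 9, 0.374 in cluster 14 and 0.362 in cluster 2. The single step that reached 0.5 on the natural log scale was the 2.61-fold one between cluster 4 and cluster 3. The 7 clusters that do not list Ccnd1 hold 29.1% of cells, and together they came to a level of 1.06 with detection in 38.8% of cells. They include clusters 5, 6, 8, 11 and 12, for which Ccnd2 was listed. An unlisted gene can still differ by less than the threshold, so this does not show that Ccnd1 was level there.

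**Figure D2:**
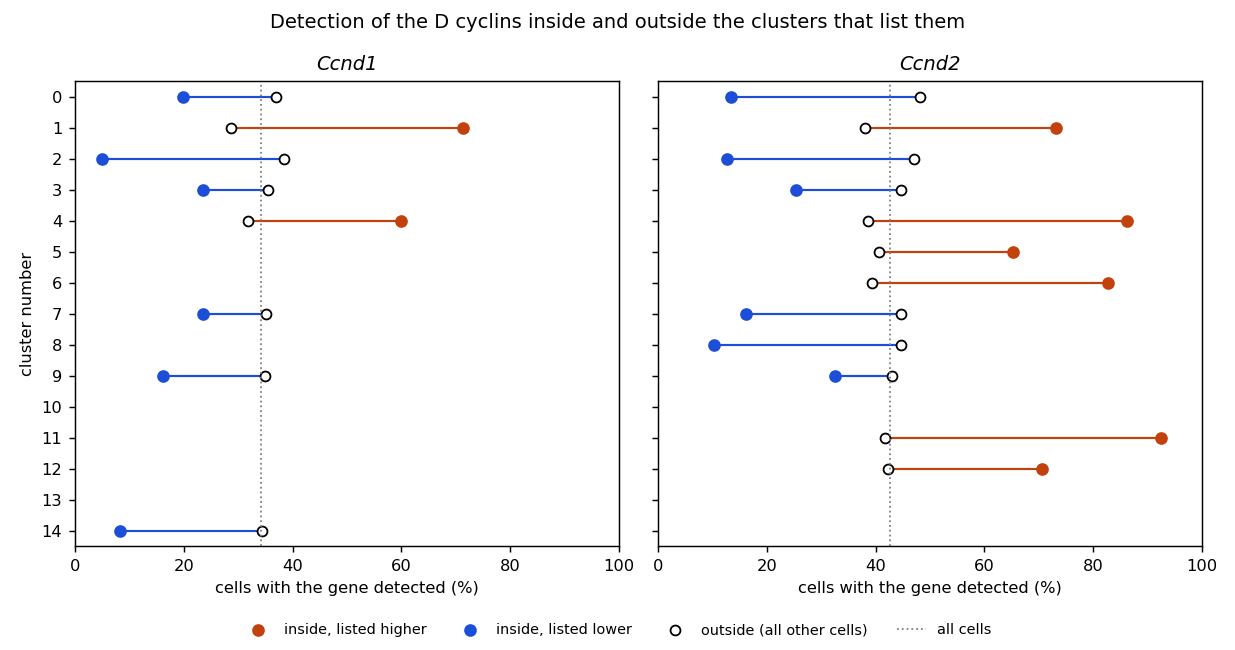
Percent of cells with Ccnd1 (left) and Ccnd2 (right) detected inside each listing cluster (filled points, orange for listed higher and blue for listed lower) and outside it (open points), with the share over all cells as a dotted line, by cluster number down the page. Ccnd2 inside ranges from 10.3% in cluster 8 to 92.5% in cluster 11, and Ccnd1 from 4.9% in cluster 2 to 71.3% in cluster 1.

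Cdkn1a, the p21 inhibitor, was listed higher in 3 clusters and lower in none. In the cardiomyocyte-like cluster 2 it was 3.88-fold higher, with detection in 64.6% of cells inside, against 15.3% outside per the authors' deposited table. In cluster 9 it was 3.57-fold higher, with 65.9% of cells inside against 20.1% outside per the authors' deposited table. In cluster 14 it was 1.83-fold higher, with 57.8% of cells inside against 21.4% outside per the authors' deposited table. These 3 clusters had close shares of cells with Cdkn1a, and the 12 others together detected it in 13.2% of cells.

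As levels over the mean of all cells, Cdkn1a reached 3.29 in cluster 9, 2.85 in cluster 2 and 1.83 in cluster 14, against 0.630 in the 12 other clusters together. Neither step between neighbours reached 0.5, although cluster 9 exceeded cluster 14 by 0.589 on the natural log scale. Cluster 2 is large, so it held 37.9% of all cells with Cdkn1a and cluster 9 held 9.92%. Cluster 13, which shares contractile genes with cluster 2, does not list Cdkn1a.

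Ccng1, the cyclin G1 gene, was listed higher in the same 3 clusters and lower in cluster 1. It was 3.13-fold higher in cluster 2, with 63.6% of cells inside against 19.2% outside per the authors' deposited table. In cluster 14 it was 1.84-fold higher, with 61.5% of cells inside against 24.7% outside, and in cluster 9 it was 1.81-fold higher, with 48.0% inside against 24.1% outside per the authors' deposited table. In the neural-progenitor-like cluster 1 it was 1.69-fold lower, with 11.7% of cells inside against 26.9% outside per the authors' deposited table. The last of these depends on cluster 2: with cluster 2 out of the outside cells the fold in cluster 1 was 1.31-fold lower, short of the threshold. Levels over the mean of all cells were 2.47 in cluster 2, 1.84 in cluster 14, 1.76 in cluster 9 and 0.625 in cluster 1.

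**Figure D3:**
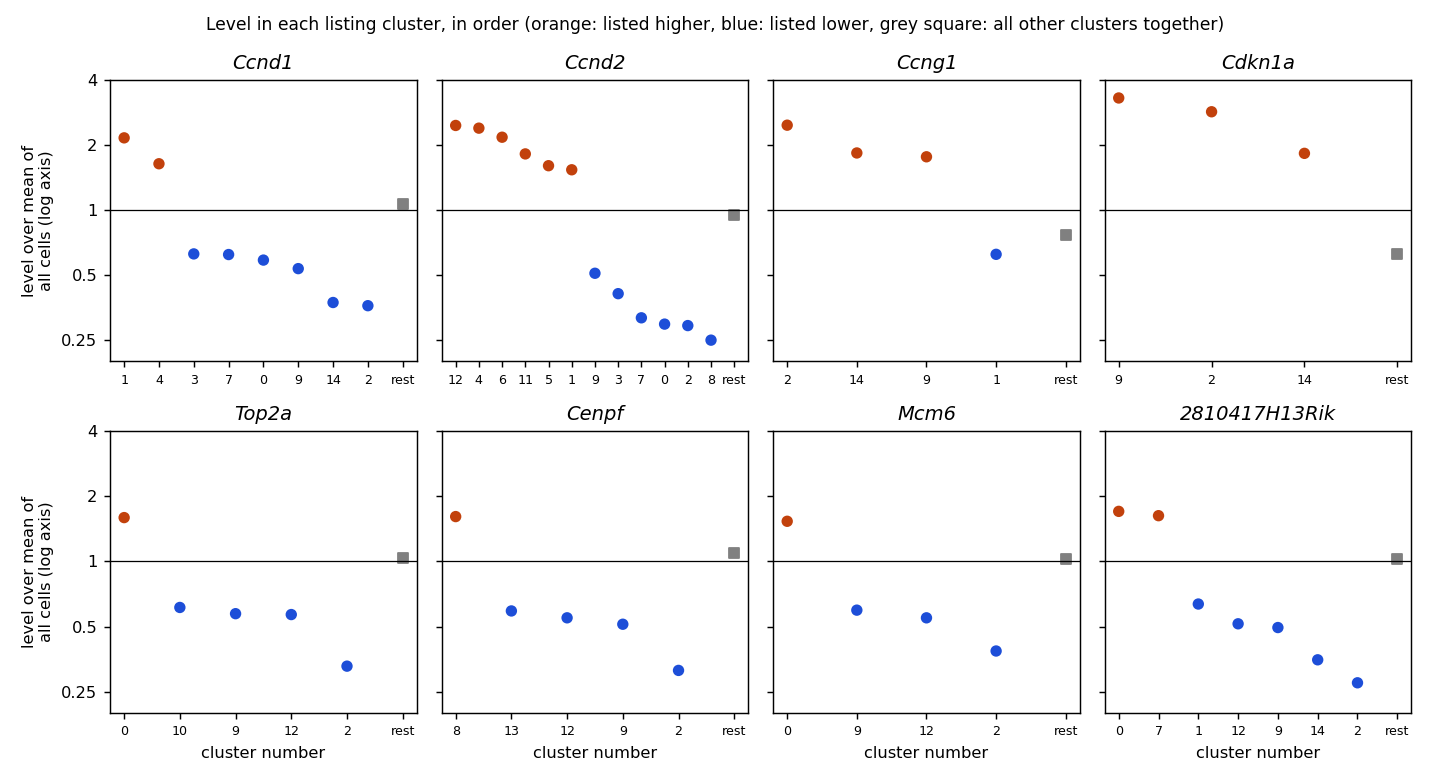
Level of each gene over the mean of all cells (log axis) in the clusters that list it, in falling order, with orange for listed higher, blue for listed lower and a grey square for all clusters that do not list it together. Cdkn1a reaches 3.29 in cluster 9, and 2810417H13Rik goes down to 0.275 in cluster 2.

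The S phase genes had the opposite pattern in cluster 2. Mcm6 was 2.83-fold lower there, with detection in 2.7% of cells inside, against 36.8% outside per the authors' deposited table. Its shares of detecting cells differ by 13.6 times, far more than its fold. 2810417H13Rik had the largest fold of any member in cluster 2, 4.02-fold lower, and was found in 3.6% of cells inside against 47.0% outside per the authors' deposited table, shares that differ by 13.1 times. The authors' added constant brings the fold of weakly detected genes closer to 1, so these folds may understate the difference.

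Mcm6 was also lower in clusters 9 and 12, at 1.70-fold and 1.84-fold, with 15.6% and 12.9% of cells inside against 33.0% and 32.8% outside per the authors' deposited table. Its only higher entry was cluster 0, 1.70-fold higher with 51.7% of cells inside against 28.9% outside per the authors' deposited table. 2810417H13Rik was lower in more clusters. It was 2.85-fold lower in cluster 14, 2.06-fold in cluster 9, 1.96-fold in cluster 12 and 1.66-fold in cluster 1, with 14.7%, 18.6%, 19.3% and 27.8% of their cells per the authors' deposited table. Both nascent-mesoderm-like clusters listed it higher, 1.95-fold in cluster 0 with 69.4% of cells inside against 36.4% outside, and 1.71-fold in cluster 7 with 70.3% against 39.4% per the authors' deposited table.

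As levels over the mean of all cells, 2810417H13Rik stood at 1.70 in cluster 0, 1.63 in cluster 7, 0.635 in cluster 1, 0.515 in cluster 12, 0.495 in cluster 9, 0.351 in cluster 14 and 0.275 in cluster 2. Mcm6 stood at 1.53 in cluster 0, 0.595 in cluster 9, 0.549 in cluster 12 and 0.385 in cluster 2. For each gene 1 step reached 0.5, the one between the clusters listed higher and those listed lower. Clusters 0 and 7 differed by 1.05 times in 2810417H13Rik. The clusters that do not list Mcm6 hold 67.0% of cells and detected it in 34.9% of them, against 32.5% over all cells.

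The mitosis genes Top2a and Cenpf were both lowest in cluster 2. Top2a was 3.34-fold lower there, with 5.3% of cells inside against 39.3% outside per the authors' deposited table. Cenpf was 3.51-fold lower, with 5.1% of cells inside against 38.7% outside per the authors' deposited table. In cluster 9 they were 1.77-fold and 1.98-fold lower, and in the neuron-like cluster 12 they were 1.77-fold and 1.84-fold lower per the authors' deposited table. In those 2 clusters each gene was detected in 16.4% to 18.4% of cells.

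The genes parted in the other clusters. Top2a was 1.79-fold higher in cluster 0, with 56.8% of cells inside against 31.0% outside, and Cenpf was 1.68-fold higher in the pluripotent-like cluster 8, with 61.9% inside against 32.7% outside per the authors' deposited table. Neither gene was listed in the cluster where the other was higher, and the 2 clusters were not compared for a gene that only 1 of them lists. Top2a was also 1.65-fold lower in the fibroblast-like cluster 10, with 16.7% of cells inside against 35.6% outside per the authors' deposited table. Cenpf was 1.70-fold lower in cluster 13, with 15.6% of cells inside against 34.5% outside per the authors' deposited table.

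Clusters 5, 10 and 13 detect genes less often for a given fold. Among their genes listed lower by at most 0.75 in natural log units, the median detection inside minus outside was -27.6, -23.7 and -26.0 percentage points. Over all such entries it was -19.4. Cluster 13 also had all 10 mitochondrially encoded genes of the table higher. The part of either in the Top2a and Cenpf entries was not tested. The Cenpf entry of cluster 13 has the weakest support of the 48 by the authors' own adjusted p-value, which compares cells and not samples, and it is lost at 0.01.

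In levels over the mean of all cells, Top2a stood at 1.59 in cluster 0, 0.613 in cluster 10, 0.573 in cluster 9, 0.568 in cluster 12 and 0.328 in cluster 2. Cenpf stood at 1.61 in cluster 8, 0.590 in cluster 13, 0.549 in cluster 12, 0.512 in cluster 9 and 0.314 in cluster 2. For Top2a the steps on either side of the middle 3 clusters reached 0.5, and for Cenpf 1 step did, between clusters 8 and 13. Cluster 0 had 4.86 times the Top2a level of cluster 2, and cluster 8 had 5.14 times its Cenpf level.

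Read by cluster, the members fall into a few combinations. The cardiomyocyte-like cluster 2 listed 6 of 8 lower, where 25.7% of all genes in the table were lower. It listed 2 of 8 higher, near the 22.7% of all genes that were higher. Cluster 9 listed the same 6 lower and the same 2 higher, against 4.01% and 9.61% of all genes. Clusters 2 and 9 share most of their outside cells, but the outside of cluster 9 includes cluster 2. Cluster 9 had smaller folds for the 6 lower genes, 1.70-fold to 2.06-fold, against 2.83-fold to 4.02-fold in cluster 2 per the authors' deposited table. With cluster 2 out of the outside cells, the folds of these 6 genes in cluster 9 were 1.86-fold to 2.28-fold lower. Of the 14 cardiomyocyte markers in the table, cluster 9 had 1 higher (Tnni1) and 1 lower (Myl3).

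The nascent-mesoderm-like cluster 0 combined 2 D cyclins lower with 3 replication and mitosis genes higher. These counts stand beside 3.76% of all genes lower and 3.09% higher in that cluster. Cluster 7 had the same 2 D cyclins lower and 2810417H13Rik higher, beside 2.84% of all genes lower and 3.34% higher. Cluster 8 had Ccnd2 lower and Cenpf higher, beside 4.26% lower and 5.51% higher. None of these 3 clusters, 0, 7 and 8, listed Ccnd1 or Ccnd2 higher or a replication or mitosis member lower. With cluster 2 out of the outside cells, 2810417H13Rik in cluster 0 was the only higher entry among them that stayed past the threshold.

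The neuron-like cluster 12 had the reverse: Ccnd2 was higher while all 4 replication and mitosis members were lower, beside 7.77% of all genes higher and 3.84% lower. The neural-progenitor-like cluster 1 had both D cyclins higher and 2810417H13Rik and Ccng1 lower, beside 3.93% higher and 2.59% lower. Cluster 4 had both D cyclins higher and no other member listed, beside 1.92% of all genes higher. Clusters 5, 6 and 11 listed Ccnd2 alone, as higher, beside 4.09%, 2.51% and 0.835% of all genes. Cluster 3 listed the 2 D cyclins alone, as lower, beside 3.01%. Cluster 14 had Cdkn1a and Ccng1 higher and Ccnd1 and 2810417H13Rik lower, beside 26.2% of all genes higher and 9.19% lower. Its 2 higher members of 8 are near the share of all genes higher there. Clusters 10 and 13 listed 1 member each as lower, beside 4.09% and 2.01%. With cluster 2 out of the outside cells, Ccnd2 and Ccng1 in cluster 1, Ccnd1 in cluster 4 and Ccnd2 in cluster 5 fell short of the threshold.

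Other genes of the G1 machinery were few in the table. Of the 24 genes on the list of G1 cyclins, their kinases and inhibitors, 7 were present, 3 of them members, with 15 higher and 20 lower entries. Cdkn1c, the p57 inhibitor and an imprinted gene, had the largest changes and was lower in clusters 0, 3, 7, 8 and 14, each of which also listed at least 1 D cyclin lower and none higher; these clusters share most of their outside cells. It was 6.92-fold lower in cluster 0 and 6.41-fold in cluster 8 per the authors' deposited table. In the other 2, clusters 1 and 12, it was 4.22-fold and 2.41-fold higher per the authors' deposited table, and Ccnd2 was higher there too. The remaining clusters with a D cyclin member had no Cdkn1c entry. These were clusters 2 and 9, with Ccnd1 and Ccnd2 lower, and clusters 4, 5, 6 and 11, with Ccnd2 higher. Cdk4, the partner kinase of the D cyclins, was listed only for cluster 2, at 2.65-fold lower per the authors' deposited table. Cdkn2a, which encodes p16 and ARF, was listed only for cluster 14, at 2.16-fold higher with 30.3% of cells inside against 1.4% outside per the authors' deposited table. Among the inhibitor genes, cluster 14 listed Cdkn1a and Cdkn2a higher, beside 26.2% of all genes, and Cdkn1c 4.07-fold lower per the authors' deposited table. Ccnd3, the remaining D cyclin gene, named here after its values were seen, was 1.93-fold lower in cluster 3, 1.81-fold lower in cluster 8 and 1.69-fold higher in cluster 9 per the authors' deposited table. Cluster 9 therefore listed Ccnd3 higher and Ccnd1 and Ccnd2 lower.

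On the p53 target list of 27 genes, 5 were in the table, 2 of them the members Cdkn1a and Ccng1, with 12 higher entries and 1 lower. The lower one was Ccng1 in cluster 1. Cluster 9 listed 4 of the 5 higher, beside 9.61% of all genes. Clusters 2 and 14 listed 3 each, beside 22.7% and 26.2% of all genes. The counts of clusters 2, 9 and 14 each include Cdkn1a and Ccng1, so they in large part repeat the members' own entries. Phlda3, an inhibitor of Akt signalling, was listed for the same 3 clusters as Cdkn1a, at 2.39-fold higher in cluster 2, 1.90-fold in cluster 9 and 1.71-fold in cluster 14 per the authors' deposited table. Btg2, an antiproliferative gene, was 1.79-fold higher in cluster 9 and 2.06-fold in cluster 12 per the authors' deposited table. Plk2, a polo-like kinase gene, was 2.33-fold higher in cluster 10 per the authors' deposited table. Most genes of this list were not in the table, so these counts describe only those that passed its thresholds.

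Of 48 S phase genes, 12 were in the table, 2 of them members. The table holds a gene only where at least 1 cluster lists it. Cluster 2 listed 11 of these 12 lower, with a median of -0.774 on the natural log scale, against -0.671 for all genes listed lower in that cluster, which are 25.7% of the table. Of these 11, 7 have no entry but that of cluster 2, so they are in the table only through it and the count is in large part fixed by the table's own filter. Nasp, a histone chaperone, had the widest pattern. It was 2.22-fold higher in cluster 0, 1.88-fold in cluster 7 and 1.82-fold in cluster 8 per the authors' deposited table. It was 3.67-fold lower in cluster 2, 2.35-fold in cluster 9, 2.08-fold in cluster 10, 1.69-fold in cluster 1 and 1.67-fold in cluster 12 per the authors' deposited table. With cluster 2 out of the outside cells, Nasp in cluster 8 was 1.64-fold higher, short of the threshold. Dut, which keeps uracil out of DNA, was 2.08-fold higher in cluster 8, and lower by 2.82-fold in cluster 2, 1.98-fold in cluster 12, 1.89-fold in cluster 9 and 1.75-fold in cluster 10 per the authors' deposited table. Tipin, a replication fork gene, was 2.20-fold lower in cluster 2 per the authors' deposited table.

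Of 64 genes of G2 and M phase, the table held 26, 2 of them members. Cluster 2 listed each of these 26 lower, with a median of -0.751 against -0.671 for all genes listed lower there, 25.7% of the table. Of the 26, 17 have no entry but that of cluster 2, so most of them could not have been in the table otherwise, and 26 of 26 is no sign of how the whole list of 64 stood. Hmgb2, a chromatin protein abundant in dividing cells, was 3.18-fold lower in cluster 2, 1.94-fold in cluster 9, 1.75-fold in cluster 10 and 1.84-fold in cluster 14, and 1.65-fold higher in cluster 8 per the authors' deposited table. With cluster 2 out of the outside cells, that only higher entry of Hmgb2 had a natural log fold change of 0.408, short of the threshold. Birc5, which encodes survivin, and Cks1b, a kinase subunit, were 2.55-fold and 2.41-fold lower in cluster 2 per the authors' deposited table. Detection inside cluster 2 against outside was 4.6% against 35.3% for Birc5 and 26.9% against 62.1% for Cks1b. Such a share can fall with fewer dividing cells or with less RNA per dividing cell. Depth is unknown, and which of these applied was not tested.

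**Figure D4:**
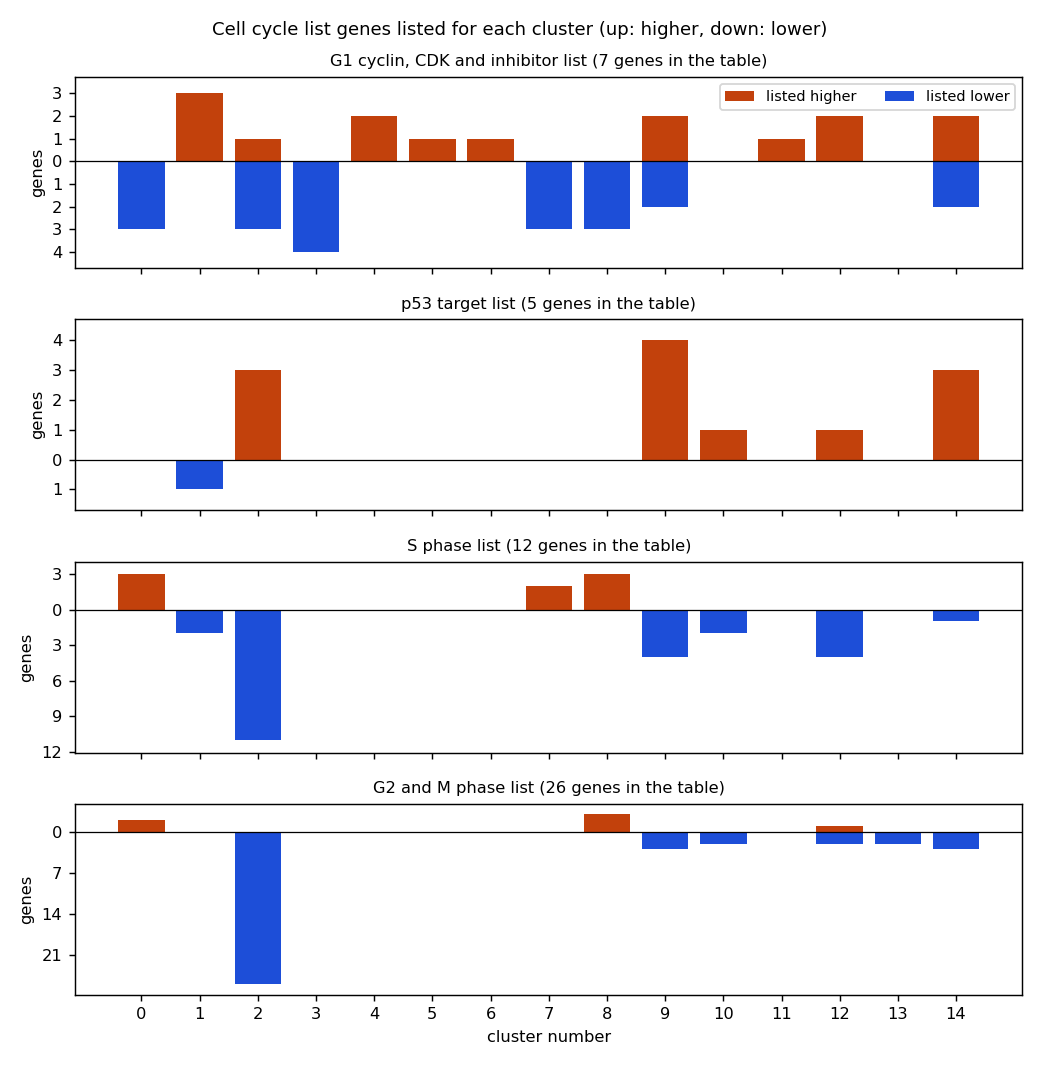
Number of genes of the 4 cell cycle lists that are listed higher (orange, up) or lower (blue, down) in each of the 15 clusters, from the authors' deposited table, with a panel for each list. Cluster 2 has 11 S phase and 26 G2 and M phase genes lower, of which 7 and 17 are in the table only through that cluster, while the G1 list is spread over 13 clusters.

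The genes most like each member were found by the cosine similarity of natural log fold changes over the 15 clusters, with 0 for a cluster that does not list a gene. Ccnd2 was most like Id3, at 0.818 with 7 clusters that list both, then the imprinted genes Mest at 0.801 and Nnat at 0.793. Ccnd1 was most like Igfbp2, at 0.796 with 6 clusters that list both, then Mest at 0.776 and Nnat at 0.748. Cdkn1a was most like Phlda3, at 0.983, followed by Cldn25 at 0.951 and Tagln at 0.95, and Ccng1 was also most like Phlda3, at 0.928, with Cdkn1a next at 0.9 and Mbnl2 at 0.850. Top2a and Mcm6 were most like each other, at 0.95 with 4 clusters that list both. Cenpf was most like Ran, Dut and Ptma, at 0.885, 0.879 and 0.879, and 2810417H13Rik like Npm1, H1fx and Snrpd1, at 0.893, 0.840 and 0.840. The next genes after its partner were Anp32b at 0.880 and Set at 0.876 for Top2a, and Rpl22l1 at 0.848 and Cenpf at 0.835 for Mcm6. All clusters share most of their outside cells, and genes with few entries can reach a high value from cluster 2 alone.

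Cluster 2 holds 12.6% of cells and listed all 8 members, so each of the 40 member entries of other clusters was recomputed with cluster 2 out of the outside cells. The entries of genes that were low in cluster 2 moved down and those of Cdkn1a and Ccng1 moved up. Of the 40, 8 fell short of the threshold: Top2a and Mcm6 in cluster 0, Ccnd2 and Ccng1 in cluster 1, Ccnd1 in cluster 4, Ccnd2 in cluster 5, 2810417H13Rik in cluster 7 and Cenpf in cluster 8. Their folds were then 1.31-fold to 1.61-fold in the same direction. In cluster 9 Cdkn1a went the other way, to 5.20-fold higher. The higher entry of 2810417H13Rik in cluster 0 stayed past the threshold at 1.74-fold, as did Ccnd2 in clusters 4, 6, 11 and 12, at 2.49-fold, 2.17-fold, 1.67-fold and 2.28-fold.

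**Figure D5:**
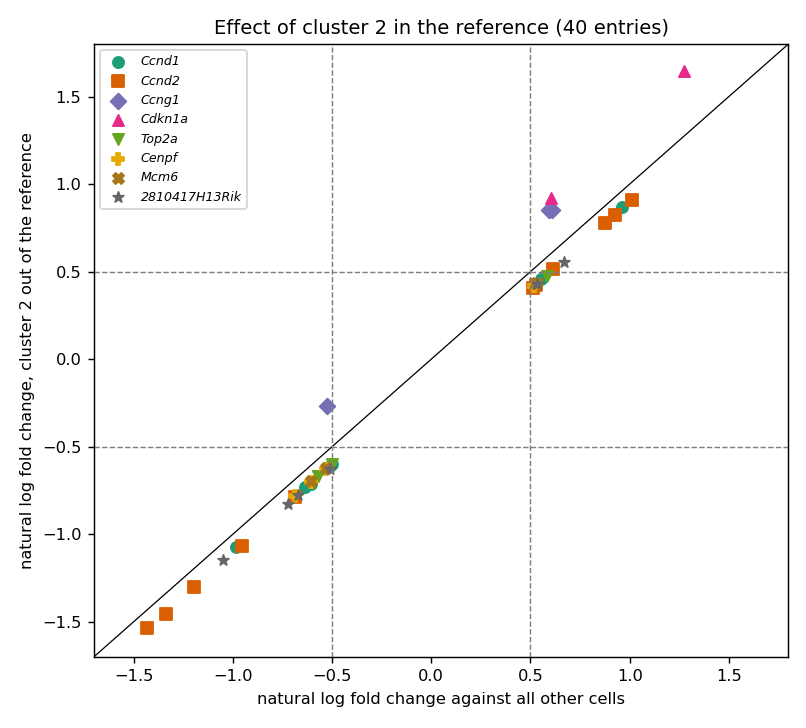
Natural log fold change of 40 member entries against all other cells (x axis) and with cluster 2 left out of the outside cells (y axis), a marker shape for each gene, with dashed lines at 0.5 either way and a diagonal of equal values. Cdkn1a in cluster 9 lies at 1.27 and 1.65, and Ccnd2 in cluster 8 at -1.43 and -1.54.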

How the data were processed

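Single cells were profiled by 10x droplet sequencing (V2 chemistry) and handled with Cell Ranger, Seurat and the mm9 genome, per the submitters' processing notes, with versions, cell filters and doublet treatment not given in the sources used here. Depth and cell numbers are unknown, so no interval was made. In the authors' deposited table the fold changes are natural log (ln) values, and the natural base held for 3 of 3 genes listed over at least 95% of cells, base 2 and base 10 for 0. The deposited fractions of detecting cells are printed as percent. The deposited p-values compare cells and served only as a filter. The smallest absolute natural log fold change was 0.50 and the larger share of each entry at least 25.1%.

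Cluster sizes were solved by least squares from 407 genes listed for 2 or more clusters (residual SD 0.0228 percentage points, sum 100.002%). With w the size and r the fold, a level over the mean of all cells is r / (w r + 1 - w), for means with the authors' constant. On simulated data of 15 clusters, 228 genes solved the sizes. The largest size error was 0.0291 percentage points and the largest of 1133 level errors 0.36%. The simulation used the sizes solved here and the same formula and thresholds. Its errors therefore check the arithmetic and not the accuracy of levels in the real cells. Genes named are the 8 members, 3 further genes of each cell cycle list with the largest changes, the 3 most like each member and the 3 leading genes of each cluster, leaving out predicted genes; 7 members matched a current symbol and 1 an older one. Genes that fall outside this rule were chosen after their values were seen. The members, lists and markers were chosen with earlier results of these data known. Protein sequences were not analysed here. Python 3.11.15, numpy 2.4.6, pandas 2.3.3 and matplotlib 3.10.9 were used.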

Additional observations from a re-analysis of the deposited data

How the results depend on the processing

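Of 227 alternative values, 212 stayed near the main value and 15 moved. Most of the 227 only solved the cluster sizes again from the same detection values, so they could hardly move. Counts have no direction to reverse, so these totals are no measure of stability. The 144 levels recomputed with other solutions of the cluster sizes moved by at most 0.0353%. The 19 higher and 29 lower member entries became 7 and 12 at an absolute natural log fold change of at least 0.75, and 4 and 10 at 1, since a stricter threshold keeps fewer entries. With cluster 2 out of the reference the higher entries became 12. The entries of the G1, p53 target, S phase and G2 and M phase lists, 35, 13, 32 and 44, became 22, 5, 9 and 13 at 0.75, and 14, 3, 5 and 3 at 1. A 10-point detection difference, the authors' adjusted p of at most 0.01, and cluster 2 out of the reference for the other counts kept each within 1.5 times. By Euclidean distance, 12 of the 24 most similar genes were the same. Between 100 bases before and 50 after the start, 17 promoter motif matches were found, against 26 in the whole window, neither count including the p53 spacing. No paired analysis was possible because each group has 1 library and the table names none. Unknown depth limits what an unlisted gene can show.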

Other observations

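Histone genes, chosen after their values were seen, were of different kinds. Of the 10 histone genes in the table, 8 were listed lower in the cardiomyocyte-like cluster 2, among them the replacement variant gene H3f3b at 3.28-fold lower and H2afx, which marks DNA breaks when phosphorylated, at 2.97-fold lower per the authors' deposited table. This count stands beside 25.7% of all genes lower in cluster 2, and 3 of the 8 are in the table only through that cluster. The linker histone gene Hist1h1e was listed for 10 clusters. It was higher in 2 of them, 2.54-fold in cluster 0 and 2.02-fold in cluster 7 per the authors' deposited table. In the other 8 it was lower, by 1.70-fold in cluster 6 to 2.69-fold in cluster 2 per the authors' deposited table. Hist1h1b, another linker histone gene, was 1.87-fold higher in cluster 0, 1.82-fold in cluster 7 and 1.82-fold in cluster 8 per the authors' deposited table. In the neuron-like cluster 12 Hist1h1e was 2.02-fold lower and Hist3h2ba 2.72-fold higher per the authors' deposited table.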
